A study of Bombyx mori with 4 samples.

Results

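The probes described here measured mRNAs of proteases, peptidases and protease inhibitors in the testis of the silkworm Bombyx mori. They were chosen by keyword from the gene descriptions in the annotation table of the study, which names each array probe by its closest human gene. A description had to hold protease, peptidase, serpin, cathepsin, trypsin, elastase, kallikrein or suppression of tumorigenicity 14, and rows on ubiquitin, proteasome, SUMO, caspase or mitochondrial proteins were left out. This gave 65 of the 43803 probes on the array, from 38 of its 34631 sequence IDs, under 28 human gene symbols. A sequence ID is the part of a probe name before its last number, and 27 of the 38 had a pair of chosen probes while 11 had 1. The keywords are words of the descriptions and not measured values, but they were set with earlier results of these data known, and the last of them names ST14 alone. Only 1999 of the 12981 annotation rows were used here, so other silkworm proteases on the array were not analysed.

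Testis RNA of op and wild-type larvae, taken on day 3 of the fifth instar, was compared on 1-color arrays. The tested larvae were op mutants, which have a translucent integument and little uric acid, with 2 arrays, and wild-type larvae, which have a white integument, with 2 arrays. The methods name strain o751 for both genotypes, with rearing on mulberry leaves, and no other allele or agent is named for either. The op trait is linked to chromosome 23 and includes male infertility and pupal death, and its causative gene was not established at the time, so the groups differ by a trait and not by a known single lesion.

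Proteases cut proteins at internal bonds or trim residues from their ends, and they are grouped by the catalytic group they use, such as a serine, an aspartate or a bound metal ion. Endopeptidases such as the trypsin-like serine proteases and the matrix metalloproteases cut within a chain, whereas aminopeptidases, carboxypeptidases and dipeptidases release residues from peptide ends. In insects, trypsin-like proteases and exopeptidases are well known from the gut, and serine protease cascades with their serpin inhibitors act in immunity and in male reproductive secretions. Matrix metalloproteases are known in Drosophila for the remodeling of tissues at metamorphosis. Roles given below are those of the human genes.

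The 4 arrays were hybridized on 1 slide and read in 1 scan, so no slide or scan separated the genotypes. Between 67.8% and 72.3% of probes were well above background on an array, and saturation touched 0 spots. Each value below is the log2 normalized signal, that is, the log2 of the background-subtracted signal relative to the 75th percentile of its array, and a difference is op minus wild type on this scale. The spread between replicates was wider in op, where the SD of the difference between the arrays was 0.693 over all tested probes, against 0.364 in wild type. The germ cell genes PIWIL4, NANOS3 and AURKC were well above background on all arrays with 5 of 5 probes. The labels number the arrays but do not say that they came from separate animals, so the p-values measure the spread between these arrays alone. The methods also mention 5 samples of each genotype, and how these relate to the arrays used here is not stated.

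Of the 65 probes, 55 were well above background on both op arrays, on both wild-type arrays or on all 4, and were tested. They came from 30 sequence IDs and 25 symbols. The other 10 probes were not tested, and 9 of them were not well above background on any array. These 9 were the probes of CELA1, of TMPRSS2 (Ka01429_267 and Ka01429_307) and of CPO, and 1 probe each named ANPEP (Ka00674_630), CELA2A (Ka01363_326), SPCS3 (Ka01406_1214), TMPRSS15 (Ka00663_825) and TMPRSS3 (Ka01610_629). The tenth, Ka01210_534 of ADAM9, was above background on 1 wild-type array alone. CELA1, CPO and TMPRSS2 therefore had no tested probe.

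A single probe passed the test: a probe of ST14 fell 11.2-fold in op testis. It was the only protease or inhibitor probe with an adjusted p under 0.05 (limma, two-sided, Benjamini-Hochberg over 30376 probes). That is 1.8% of the 55 tested, against 0.316% of all tested probes, and 0.174% of all tested probes were called lower in op. The probe was taken in by the keyword that names ST14 alone, set with earlier results known, so nothing is read from this share. Without passing the adjusted threshold, a membrane metalloprotease, both tested metallocarboxypeptidases and a dipeptidase had lower values in op testis, and both aminopeptidases and the only inhibitor had higher ones. The tested serine exopeptidases, oligopeptidases, processing proteases and the aspartic protease had differences between -0.29 and 0.49, with intervals that included 0.

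**Figure D1:**
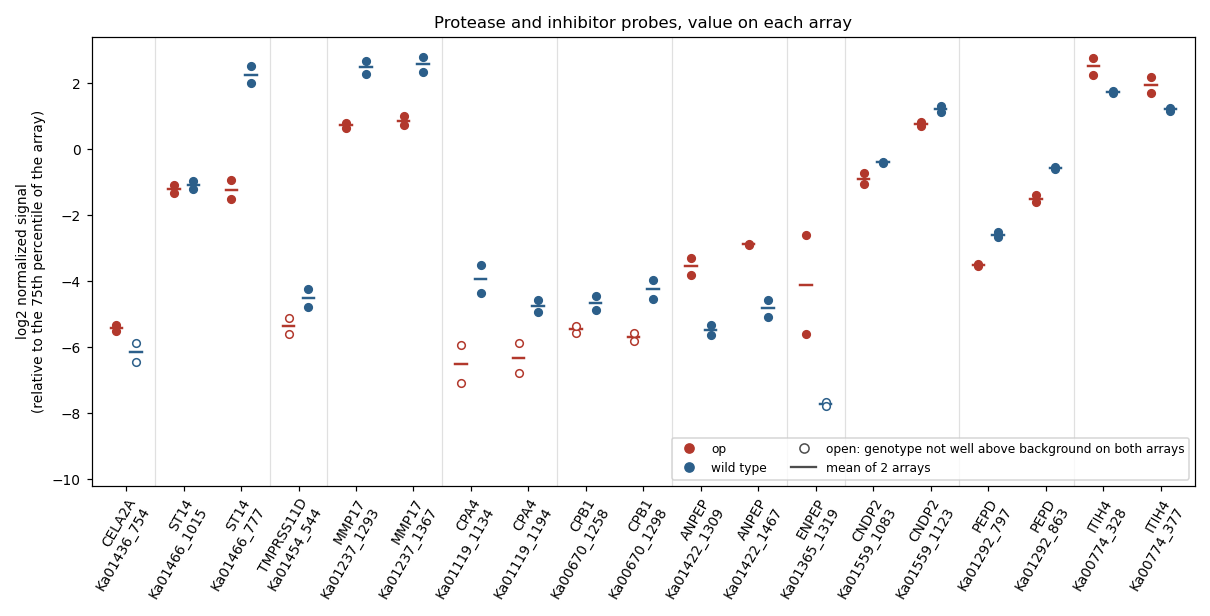
Log2 normalized signal (y axis) on each array for the 18 probes with an unadjusted p under 0.05 and for the other ST14 probe, Ka01466_1015, with op on the left of each pair and wild type on the right, dots for arrays and bars for means of 2 arrays. Op values of Ka01466_777 lie at -0.94 and -1.50, below the wild-type values of 2.0 and 2.52, while the values of Ka01466_1015 overlap between genotypes.

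Among the serine proteases, ST14, known in human as matriptase, is a membrane-anchored trypsin-like protease of epithelia that activates other proteases. The probe Ka01466_777 read -0.94 and -1.50 in op, against 2.0 and 2.52 in wild type. Both op arrays lay below both wild-type arrays, and the gap between the genotypes was several times the gap between the replicates of either. The difference was -3.48 (SE 0.29, 95% interval -4.26 to -2.71, limma adjusted p = 0.0460). The call was near the threshold. Where an array is left out, the lone array of its genotype is assumed to vary like the other genotype. The call was lost without wild-type replicate 1 (adjusted p = 0.0671) and without wild-type replicate 2 (adjusted p = 0.0829), and over all alternatives the adjusted p ran between 0.0116 and 0.306 while the difference stayed between -3.76 and -3.18.

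The second probe of the same sequence ID did not show this difference. Ka01466_1015 read -1.07 and -1.32 in op, against -1.21 and -0.95 in wild type. The genotypes overlapped, with a difference of -0.11 (95% interval -0.61 to 0.39, limma adjusted p = 0.779). Within an array, Ka01466_777 minus Ka01466_1015 was 0.13 and -0.18 in op, against 3.22 and 3.47 in wild type. The pair therefore differed between genotypes by -3.37 (SE 0.16, 95% interval -3.84 to -2.91, limma adjusted p = 0.0793 over 6432 pairs). The file does not say where in the transcript each probe lies, and whether the probes read different transcripts was not tested.

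The other serine proteases had smaller differences. TMPRSS11D, known in human as the airway trypsin-like protease, read -5.59 and -5.13 in op with Ka01454_544, against -4.78 and -4.23 in wild type. The op values lay below the wild-type ones by -0.85 (95% interval -1.59 to -0.11, limma adjusted p = 0.230), and 1 of the op arrays was not well above background. With the normexp background correction, which adds an offset of 50 to every signal and so draws dim probes together, the difference was -0.04. Its other probe, Ka01454_479, was not well above background in either op array and had -0.23 (95% interval -1.02 to 0.55, limma adjusted p = 0.698), with signals too close to background for a fold.

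CELA2A, a pancreatic elastase in human, was named by 3 sequence IDs. Its probe Ka01436_754 read -5.50 and -5.32 in op, against -5.88 and -6.44 in wild type, a difference of 0.75 (95% interval 0.10 to 1.40, limma adjusted p = 0.231). It was above background on both op arrays and 1 wild-type array, and with normexp the difference was 0.19. Its partner Ka01436_677 had -0.23 (95% interval -0.94 to 0.47), so the probes of this sequence ID pointed in opposite directions at signals near background. The brighter sequence ID Ka02020, well above background on all arrays, read -0.38 and -0.03 in op with Ka02020_939, against -0.37 and -0.38 in wild type, and the genotypes overlapped.

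Of 17 tested serine protease probes, 1 fell, 1 more was higher and 1 more lower at an unadjusted p under 0.05. Among all tested probes 10.6% were higher and 8.04% lower at that threshold. The median difference of the serine protease probes was -0.11. TMPRSS9, a protease with several serine protease domains in human, read 4.07 and 3.70 in op with Ka01443_1307, against 3.54 and 3.51 in wild type, with a difference of 0.36 (95% interval -0.15 to 0.87). The other probe of this sequence ID, Ka01443_389, was near background, at -5.16 and -5.83 in op, against -5.22 and -5.74 in wild type. Its difference was -0.01 (95% interval -0.85 to 0.84). TMPRSS15, the enteropeptidase that activates trypsinogen in human, read 0.62 and 0.86 in op with Ka01148_604, against 1.14 and 1.12 in wild type, with a difference of -0.39 (95% interval -0.83 to 0.05). With Ka01443_1307 and Ka01148_604 the arrays of the genotypes did not overlap, yet the intervals included 0.

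TMPRSS6, the liver protease matriptase-2 of human iron regulation, read -4.43 and -4.77 in op with Ka00641_728, against -4.99 and -5.19 in wild type. TMPRSS3 was uneven within op: Ka01430_789 read -2.94 and -4.49 in op, against -3.46 and -3.69 in wild type. Its wild-type values lay between the op arrays, and the interval of its difference was wide (-1.58 to 1.29). HTRA2, which acts in mitochondria in human, read -2.03 and -1.73 in op with Ka01904_373, against -1.84 and -1.89 in wild type, with the wild-type values between the op ones.

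Among the metalloproteases of the membrane and matrix, MMP17, a matrix metalloprotease held at the cell surface by a lipid anchor in human, had lower values in op with both probes. Ka01237_1293 read 0.80 and 0.66 in op, against 2.29 and 2.68 in wild type. Ka01237_1367 read 1.01 and 0.73 in op, against 2.36 and 2.80 in wild type. With each probe both op arrays lay below both wild-type arrays. The differences were -1.75 (SE 0.20, 95% interval -2.29 to -1.22, limma adjusted p = 0.0704) and -1.71 (SE 0.23, 95% interval -2.31 to -1.11, limma adjusted p = 0.0851), a wild-type signal 3.37-fold and 3.27-fold the op signal. Neither passed the threshold, and the probes of the pair differed by -0.04 (95% interval -0.25 to 0.17). Without op replicate 1 the adjusted p was 0.0309 and 0.0334 and without op replicate 2 it was 0.0354 and 0.0430, but without wild-type replicate 1 it was 0.177 and 0.187 and without wild-type replicate 2 it was 0.260 and 0.308. Leaving out an op array raised the calls over all probes to 2366 or 2413, against 96 with all arrays, here and in the results below, so passing in those fits says little. Over all alternatives the adjusted p ran between 0.0209 and 0.308 and between 0.0289 and 0.320.

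The remaining metalloproteases of this kind were low in signal. ADAM9, a membrane metalloprotease that sheds cell-surface proteins in human, read -3.43 and -3.05 in op with Ka01210_488, against -3.70 and -3.80 in wild type, with a difference of 0.51 (95% interval -0.01 to 1.03). ADAMTS16, a secreted matrix metalloprotease, read -3.80 and -3.42 in op with Ka02021_329, against -3.24 and -3.46 in wild type. Its genotypes overlapped, at -0.26 (95% interval -0.81 to 0.29).

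The metallocarboxypeptidases, which remove residues from the C-terminal end of peptides, had lower values in op with each of 4 tested probes, and 0 of 4 passed after adjustment. All 4 entered the test only through wild type, where both arrays were well above background, so the filter favored lower op values and nothing is read from their count. At an unadjusted p under 0.05 were 4 of the 4, against 8.04% of all tested probes that were lower in op. CPA4, a carboxypeptidase A, read -7.09 and -5.94 in op with Ka01119_1134, against -4.35 and -3.52 in wild type. Its other probe Ka01119_1194 read -6.77 and -5.87 in op, against -4.94 and -4.57 in wild type. The op arrays were not well above background with either probe, so only a bound can be given: the wild-type signal was at least 3.52-fold (Ka01119_1134, limma adjusted p = 0.123) and at least 1.98-fold (Ka01119_1194, limma adjusted p = 0.145) the op signal. Such a bound puts each op array at the dimmest signal that still counted as above background there, or at its own signal where that is higher. With normexp the differences were smaller than these bounds, at -0.52 and -0.25. Without op replicate 2 the adjusted p was 0.0324 and 0.0256, within ranges over all alternatives of 0.0165 to 0.385 and 0.0256 to 0.617.

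CPB1, a carboxypeptidase B that takes off basic residues, was above background on both wild-type arrays and 1 op array. Ka00670_1298 read -5.56 and -5.82 in op, against -4.54 and -3.95 in wild type, a difference of -1.45 (SE 0.26, 95% interval -2.14 to -0.76, limma adjusted p = 0.113). Ka00670_1258 read -5.57 and -5.35 in op, against -4.88 and -4.45 in wild type, a difference of -0.80 (95% interval -1.38 to -0.22, limma adjusted p = 0.185). Both op arrays lay below both wild-type arrays with either probe, and with normexp the differences were -0.32 and -0.06.

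The aminopeptidases, membrane enzymes that remove residues from the N-terminal end, were the group with the largest higher values in op. ANPEP, aminopeptidase N of the intestinal and renal brush border in human, read -3.80 and -3.29 in op with Ka01422_1309, against -5.34 and -5.62 in wild type. Its probe Ka01422_1467 read -2.86 and -2.90 in op, against -4.56 and -5.08 in wild type. Both op arrays lay above both wild-type arrays with either probe, and all 4 arrays were well above background. The differences were 1.93 (SE 0.24, 95% interval 1.29 to 2.58, limma adjusted p = 0.0766) and 1.94 (SE 0.23, 95% interval 1.33 to 2.54, limma adjusted p = 0.0714), that is 3.82-fold and 3.83-fold. The pair differed by -0.01 (95% interval -0.70 to 0.69), so the probes gave near-equal estimates. With normexp they were 0.60 and 0.77. Without op replicate 1 the adjusted p was 0.0170 and 0.0371 and without op replicate 2 it was 0.0269 and 0.0371, within ranges over all alternatives of 0.0170 to 0.320 and 0.0263 to 0.313.

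ENPEP, aminopeptidase A, which cleaves angiotensin II in human, had the highest fitted difference of the group and the widest interval. Ka01365_1319 read -2.61 and -5.59 in op, against -7.67 and -7.80 in wild type. Both op arrays were above both wild-type arrays, but the op arrays lay 2.98 apart from each other. Neither wild-type array was well above background, so only a bound is given: the mean op signal was at least 3.79-fold the wild-type signal (limma adjusted p = 0.189). That bound leaves out the spread between the op arrays, and the 95% interval of the fitted ratio began at 1.98-fold. The fitted difference of 3.63 (95% interval 0.98 to 6.29) was 2.15 without op replicate 1 (adjusted p = 0.0123) and 5.12 without op replicate 2 (adjusted p = 0.0165), and over all alternatives the adjusted p reached 0.597. With normexp it was 0.80, which is less than the bound. This probe entered the test only through op.

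The dipeptidases, cytosolic enzymes of the last step of peptide breakdown, had lower values in op with 7 of 7 probes, from 4 sequence IDs, and both op arrays lay below both wild-type arrays in all 7, as they did in 24.9% of all tested probes. PEPD, the human prolidase that splits dipeptides ending in proline, read -3.48 and -3.55 in op with Ka01292_797, against -2.67 and -2.51 in wild type. Ka01292_863 read -1.40 and -1.60 in op, against -0.59 and -0.55 in wild type. The wild-type signal was 1.90-fold and 1.91-fold the op signal, with differences of -0.92 (SE 0.16, 95% interval -1.34 to -0.50, limma adjusted p = 0.110) and -0.93 (SE 0.16, 95% interval -1.36 to -0.50, limma adjusted p = 0.112). Without op replicate 1 the adjusted p was 0.0464 and 0.0359, the lowest values over the alternatives, of which the highest were 0.703 and 0.659. With normexp the differences were -0.46 and -0.75. A different sequence ID named PEPD, Ka01392_894, read -3.05 and -3.16 in op, against -3.04 and -2.89 in wild type, with a difference of -0.14 (95% interval -0.56 to 0.28).

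CNDP2, the cytosolic nonspecific dipeptidase, was named by 2 sequence IDs and had small differences in all 4 probes. Ka01559_1083 read -1.06 and -0.73 in op, against -0.37 and -0.40 in wild type, a difference of -0.51 (95% interval -1.0 to -0.02, limma adjusted p = 0.256). Ka01559_1123 read 0.70 and 0.84 in op, against 1.32 and 1.14 in wild type, a difference of -0.46 (95% interval -0.90 to -0.02, limma adjusted p = 0.256). Ka02292_789 read 3.00 and 2.83 in op, against 3.27 and 3.29 in wild type, with a difference of -0.37 (95% interval -0.78 to 0.05). All op values of CNDP2 lay below the wild-type values of the same probe, and none of the differences reached 2-fold.

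The only inhibitor under the keywords was ITIH4, a heavy chain of the inter-alpha-trypsin inhibitor family, in which the inhibitory domains lie in the bikunin light chain, and no serpin was among the rows used. Ka00774_328 read 2.78 and 2.25 in op, against 1.78 and 1.71 in wild type. Ka00774_377 read 2.18 and 1.70 in op, against 1.26 and 1.17 in wild type. Both op arrays lay above both wild-type arrays with either probe. The differences were 0.77 (SE 0.23, 95% interval 0.16 to 1.38, limma adjusted p = 0.205) and 0.72 (SE 0.22, 95% interval 0.15 to 1.30, limma adjusted p = 0.207), a 1.71-fold and 1.65-fold op signal. Without op replicate 2 the adjusted p was 0.0378 and 0.0430, the lowest values over the alternatives, of which the highest were 0.837 and 0.859.

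The lysosomal, prolyl and processing enzymes had small differences. The aspartic protease CTSD, cathepsin D of the lysosome, read 2.77 and 2.35 in op with Ka01462_759, against 2.45 and 2.65 in wild type, with the wild-type values between the op ones. Of the serine carboxypeptidases, PRCP, which splits off a C-terminal residue after proline, read 3.38 and 3.04 in op with Ka01172_353, against 2.98 and 3.14 in wild type. CPVL, a carboxypeptidase of human macrophages, read 1.36 and 0.97 in op with Ka01201_545, against 1.18 and 1.15 in wild type. With these 3 probes the genotypes overlapped, and the intervals of the differences were -0.56 to 0.58, -0.36 to 0.66 and -0.51 to 0.52, so differences of these sizes cannot be told from 0. The other CTSD probe, Ka01462_800, read 1.56 and 1.55 in op, against 1.70 and 1.89 in wild type, without overlap (-0.24, 95% interval -0.66 to 0.18).

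The other sequence IDs of PRCP and CPVL also had intervals that included 0. Ka02331_174 of PRCP read -1.26 and -1.52 in op, against -1.48 and -1.41 in wild type, with overlap, while its partner Ka02331_105 had both op arrays above both wild-type arrays by a narrow gap (0.25, 95% interval -0.24 to 0.74). The CPVL probes of Ka00704 pointed in opposite directions, each without overlap. With Ka00704_743 the gap was too small to show in the rounded values. Ka00704_676 read -4.30 and -4.90 in op, against -5.17 and -5.02 in wild type (0.49, 95% interval -0.17 to 1.16). Ka00704_743 read -5.07 and -5.51 in op, against -4.93 and -5.07 in wild type (-0.29, 95% interval -0.85 to 0.27). The pair differed by 0.79 (95% interval 0.41 to 1.16, limma adjusted p = 0.392 over all pairs).

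PREP, the prolyl endopeptidase of short peptides, read -2.02 and -2.49 in op with Ka00810_390, against -2.38 and -2.23 in wild type. DPP10, a dipeptidyl peptidase relative that lacks enzyme activity in human, read -3.32 and -3.76 in op with Ka00598_643, against -3.47 and -3.98 in wild type. The genotypes overlapped with both probes, at 0.05 (95% interval -0.53 to 0.62) for PREP and 0.19 (95% interval -0.52 to 0.90) for DPP10. The other PREP probe, Ka00810_380, had a difference of -0.26 (95% interval -0.88 to 0.35), also with overlap. Ka00810_380 and Ka00810_390 differed by -0.31 (95% interval -0.57 to -0.05, limma adjusted p = 0.576 over all pairs).

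SPCS3, a noncatalytic subunit of the signal peptidase that trims secreted proteins, read 4.32 and 4.50 in op with Ka02572_444, against 4.37 and 4.48 in wild type. ZMPSTE24, the zinc protease that matures lamin A in human, read 0.51 and 0.89 in op with Ka02631_739, against 0.51 and 0.48 in wild type. The difference was -0.02 (95% interval -0.45 to 0.41) for SPCS3 and 0.21 (95% interval -0.31 to 0.72) for ZMPSTE24. The 4 tested probes of these processing enzymes ranged between -0.02 and 0.24.

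**Figure D2:**
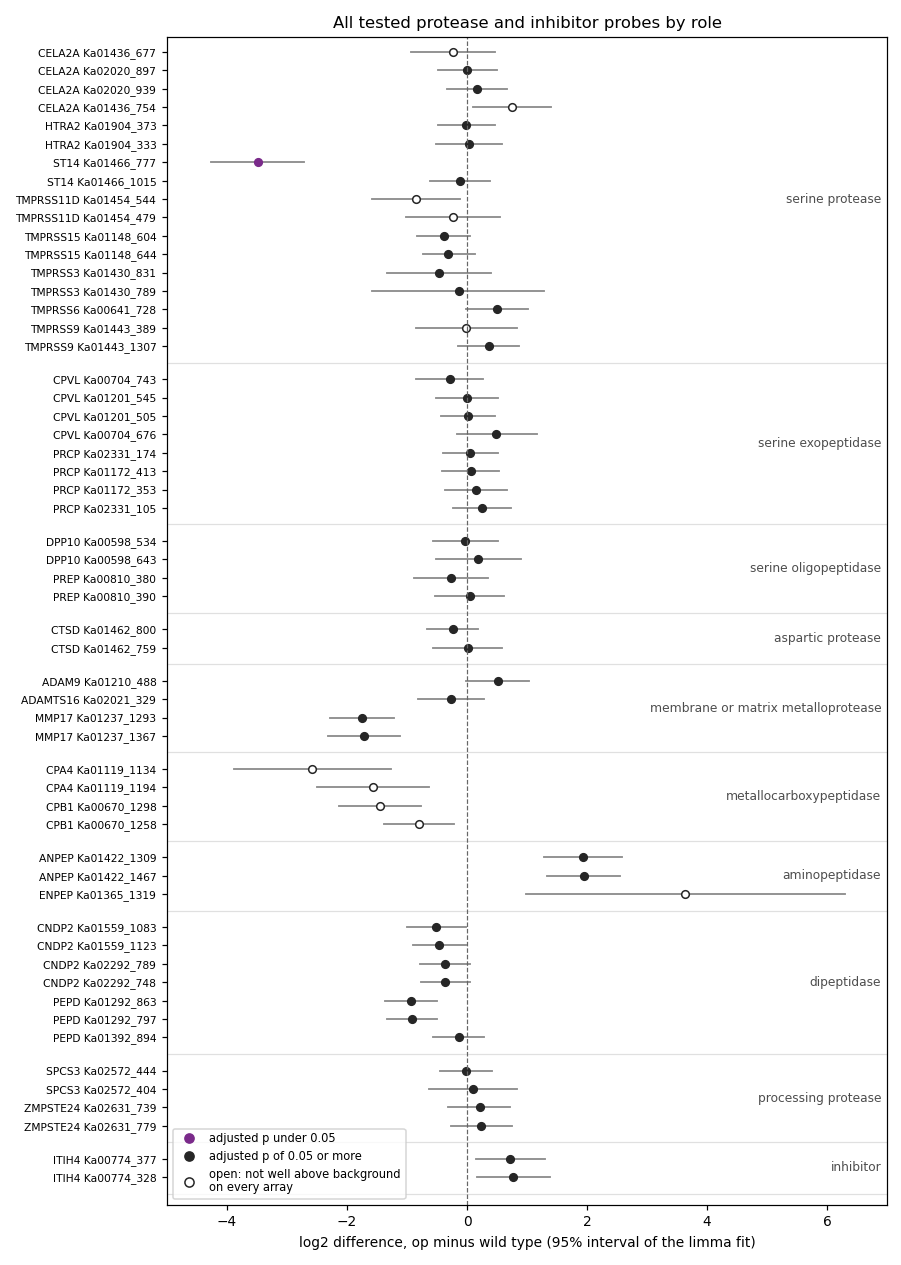
Log2 difference, op minus wild type (x axis), of the 55 tested probes, grouped by role, with dots for the limma estimate and lines for its 95% interval. The ST14 probe Ka01466_777 is the single one with an adjusted p under 0.05, at -3.48, and the 3 aminopeptidase probes lie between 1.93 and 3.63.

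Over all 55 probes, 25 had higher and 30 lower values in op, with a median difference of -0.016, against 0.031 over all tested probes. At an unadjusted p under 0.05 there were 18 probes, or 32.7%, against 18.7% of all tested probes. Of these 6 were higher in op, or 10.9%, against 10.6% of all tested probes, and 12 were lower, or 21.8%, against 8.04%. The difference exceeded 2-fold in 9 probes, or 16.4%, against 7.52% of all tested probes, 3 of them higher and 6 lower. Probes of 1 sequence ID are not independent, and these 9 came from 6 sequence IDs. The ST14 probe, which has a keyword of its own, is among the 12 and the 9, as are probes that entered the test through wild type only. No excess of lower values is therefore read from these shares.

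The same counts were smaller where both genotypes were measured. In 10 of the 55 tested probes at least 1 array was not well above background, so that these entered the test through 1 genotype only, and 7 of them were among the 18. Of the other 45, 11 had an unadjusted p under 0.05, or 24.4%, against 17.2% of all probes well above background on all arrays, with 4 higher and 7 lower. Over 2-fold were 5 of the 45, or 11.1%, against 5.45%, namely the ST14 probe, both MMP17 probes and both ANPEP probes.

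Both op arrays lay above both wild-type arrays in 13 of the 55 probes, or 23.6%, against 28.8% of all tested probes. Both op arrays lay below both wild-type arrays in 19, or 34.5%, against 24.9%. Between the op arrays themselves 3 probes (CPA4, ENPEP and TMPRSS3) differed by over 2-fold, and between the wild-type arrays 0 did, against 7.35% and 1.84% of all tested probes. With 2 arrays against 2, an exact permutation test of a single probe cannot give a p below 0.333.

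**Figure D3:**
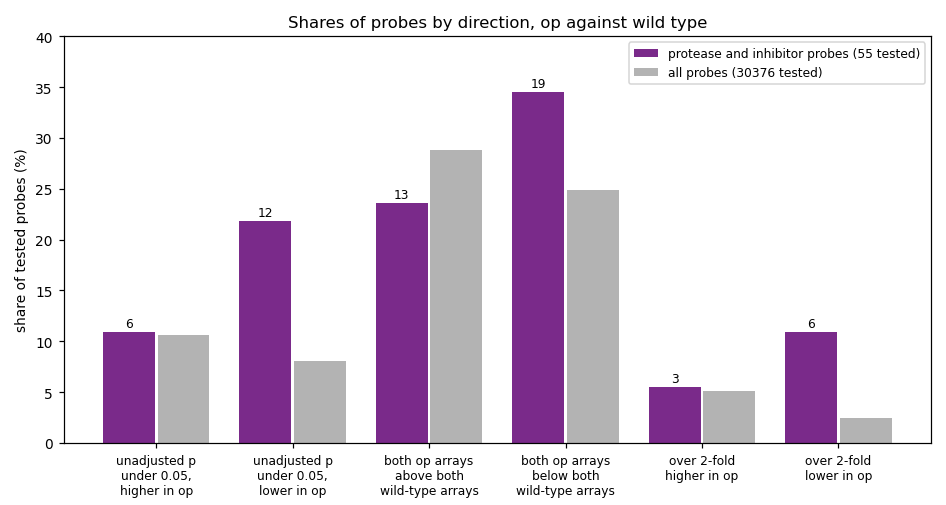
Share of tested probes (y axis, percent) that met each rule named under the bars, for the 55 protease and inhibitor probes (dark bars, with their number on top) and all 30376 tested probes (grey bars). At an unadjusted p under 0.05, 12 of 55 were lower in op, against 8.04% of all probes, and 6 of 55 were higher, against 10.6%. The 12 include probes that entered the test through wild type only and the ST14 probe taken in by name, so no excess is read from them.

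In 25 sequence IDs both probes were tested, so the probes of each could be set side by side on the same array. Some of these probes, such as Ka01443_389 and Ka01454_479, were near background, and their pairs are in the counts below. After adjustment 0 of 6432 pairs on the array (0%) passed by limma with Benjamini-Hochberg adjustment, while at an unadjusted p under 0.05 there were 8 of the 25 member pairs, against 7.93% of all pairs. The estimates of the probes of a pair differed by under 0.1 in 11 pairs, among them those of MMP17, ANPEP, PEPD and ITIH4. The sign was shared in at least 15, where a difference that rounded to 0 was not counted as shared. The median size of the disagreement was 0.17, against 0.07 over all pairs.

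Of the 25 pairs, those of ST14 and CPA4 disagreed by over 2-fold, and they were singled out after their values were seen. In CPA4 both probes were lower in op, by differing amounts (-1.02 between their differences, 95% interval -1.63 to -0.41, limma adjusted p = 0.459), and its op arrays were not well above background. In ST14 the disagreement of -3.37 was between probes that were well above background on all arrays.

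**Figure D4:**
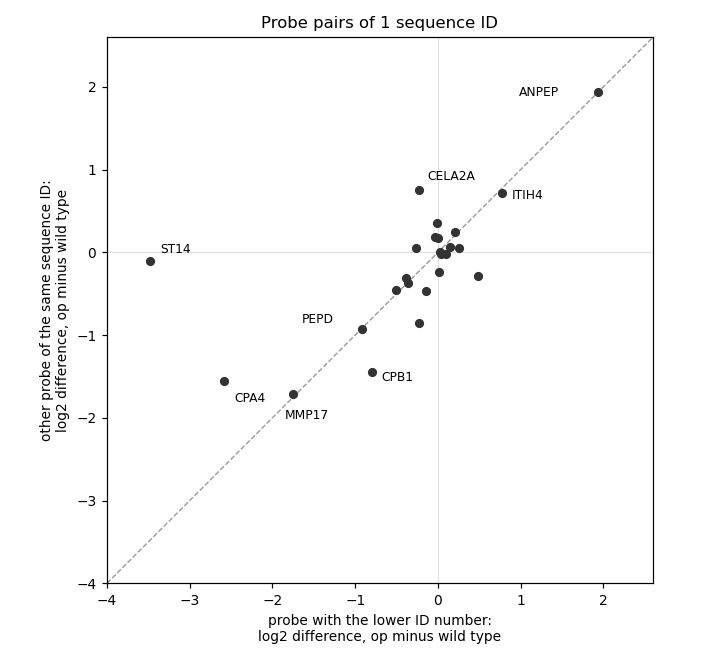
Log2 difference, op minus wild type, of the probe with the lower ID number (x axis) and of the other probe of the same sequence ID (y axis) for 25 pairs, with a dashed line where both are equal. The MMP17, PEPD, ANPEP and ITIH4 pairs lie on the line, and the ST14 pair lies at -3.48 and -0.11, far from it.

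Other genes of protein breakdown, in a list outside the keywords, had 26 tested probes under 13 symbols. By limma 0 of them passed after adjustment, and their median difference was -0.10. An unadjusted p under 0.05 was found in 4 of the 26, against 18.7% of all tested probes. Of these 4 probes, 2 were of OVCH1, a trypsin-like protease, and had lower values in op. Ka01138_722 read -0.32 and -0.96 in op, against 0.29 and 0.65 in wild type (limma adjusted p = 0.173). The lysosome list, with 31 tested probes, had 0 calls after adjustment and 7 higher and 6 lower at an unadjusted p under 0.05. Of all tested probes, 10.6% were higher and 8.04% lower at that threshold.

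Lists of genes of other tissues held probes with higher values in op, though not in all members, and are set here beside ANPEP, ENPEP and ITIH4. Of 6 tested muscle probes, 4 had higher values in op at an unadjusted p under 0.05, against 10.6% of all tested probes, and both MYH11 probes had lower ones (-0.19 and -0.14). The summed signal of the muscle list was 4.51 to 6.4 times the 75th percentile of the array in op, against 1.55 to 3.06 in wild type, with TPM3 and TMOD1 not well above background on any array. Of 7 basement membrane probes, 5 were higher at that threshold and both LAMA4 probes were near 0 (0.06 and 0.10), with a summed signal of 5.20 to 5.54 in op, against 4.21 to 4.82 in wild type. The 5 were of COL4A5, COL4A6 and NID1, with both probes of COL4A6 and NID1 counted, and NID1 probe Ka02336_410 entered the test only through op. Of the 5 tested blood cell and defence probes, 3 were higher at that threshold, against 10.6% of all tested probes, and all 3 were of PXDN. The tested LYZL2 probes were at -0.99 and 0.34. The summed signal of this list was 2.52 to 2.73 in op, against 1.56 to 2.0 in wild type. In the 3 lists 0 probes passed after adjustment by limma. Their part in the values of ANPEP, ENPEP and ITIH4 was not tested.

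Beside the enzymes with lower values in op, the germ cell list had 0 of 5 probes at an unadjusted p under 0.05. Its summed signal was 4.72 to 4.79 in op, against 5.67 to 5.88 in wild type. The members did not share a direction: the PIWIL4 probes were at -0.35 and -0.29, those of NANOS3 at -0.09 and 0.01, and AURKC at 0.40. Of 13 tested probes of digestive lipases and disaccharidases, 2 were lower at an unadjusted p under 0.05, against 8.04% of all tested probes. Both were CEL probes of the same sequence ID, and 0 probes were higher. The summed signals were 7.48 to 13.2 in op, against 9.03 to 17.6 in wild type. The LCTL probe Ka01397_639 varied within both genotypes, at 1.01 and 2.73 in op, against 1.16 and 3.30 in wild type. The part of these lists in the values of ST14, MMP17, CPA4, CPB1 and PEPD was not tested. In whole testis RNA, fewer cells of a type and less RNA per cell cannot be told apart.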

How the data were processed

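The authors hybridized Cy3-labeled testis RNA to 4 one-color arrays and read them with Agilent Feature Extraction 9.5. The deposited scanner files give, for each spot, a processed intensity from which background had been subtracted, and flags for outliers, saturation and signal above background. A table of log2 values normalized by the authors in GeneSpring GX was also deposited and served as an alternative.

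From the intensity, log2 of the processed signal was taken and the 75th percentile of its array subtracted, with control and outlier-flagged spots removed. Testing required signal well above background on both arrays of either genotype, which 30376 of 43803 probes had. Bounds rest on the dimmest signal above background of each array (8.12 to 10.8), compare means and leave out the spread between arrays. Models were fitted in limma 3.58.1 (R 4.3.3) by lmFit and eBayes, and two-sided p-values were adjusted by Benjamini-Hochberg at 0.05. For sequence IDs with both probes tested, the within-array difference was fitted in the same way. The scripts were tested on simulated data. The number of arrays limits the precision.

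Named with tests are probes with an adjusted or unadjusted p under 0.05 and the other probes of their sequence IDs. For every other sequence ID the probe of highest mean signal is given as a level, and any further probe was named with its value already known. The members and gene lists were chosen with earlier results of these data known. Of rows holding a keyword, 16 were left out by the excluded words. The normexp background correction used the median spot signal with an offset of 50, because the mean signal that the design called for was not among the columns used. Other alternatives were median scaling, quantile normalization, the authors' normalized values, a stricter and no filter on dim probes, a robust fit with a trend, a block on the replicate number, a t-test as in the methods and fits without 1 of the arrays. Unscaled values were tried after seeing the data. Probe sequences and positions were not used here. A result on 1 listed gene is not reported here.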

Additional observations from a re-analysis of the deposited data

How the results depend on the processing

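The count of protease and inhibitor probes past the threshold was 1 with median scaling, the deposited normalized values, a filter on all 4 arrays and no scaling. It was 0 with quantile normalization, with no filter on dim probes and by the methods' t-test after adjustment (10 at an unadjusted p under 0.05), 3 with normexp, 4 with a trend and robust fit and 7 with a replicate block. Leaving out an array gave 9 for op replicate 1, 10 for op replicate 2 and 0 for either wild-type array. Over all probes the count of 96 (43 higher, 53 lower in op) was 15 with quantile normalization (5 and 10), 414 with normexp (301 and 113), 54 with the filter on all 4 arrays, 0 with no filter, 464 with the trend and robust fit, 715 with the replicate block, 0 by the methods' t-test, 45 with no scaling (12 and 33) and 33 to 2413 without 1 array. The replicate numbers do not pair the arrays (correlation of same-numbered deviations -0.0298), and the block was run for comparison only. For probe pairs the count was 2 with normexp, the ST14 pair among them, and 0 in each other setting run. The members' median was -0.187 to -0.028 without 1 array. In these settings the groups did not overlap in 37 to 50 of the 55 probes, against 32 with all arrays. By chance alone, 1 array against 2 overlaps less often than 2 against 2. The matching share of all tested probes was not counted, so nothing is read from this rise. Of 285 values of 21 named probes under alternatives, 247 kept their direction and side of the threshold, 5 fell below it, all of Ka01466_777, 27 passed it and 6 changed sign. Those 6 were all of probes with no call. Ka01436_677 was 0.02 with normexp and -0.54 to 0.08 without 1 array, Ka01454_479 was 0.03 with normexp and -0.60 to 0.13 without 1 array, and Ka01466_1015 was -0.24 to 0.02 without 1 array, with 0.01 for op replicate 2 left out. The cause was not tested. With 2 arrays a genotype, and several members near background, small differences were not detectable.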
